A study of Mus musculus with 10 samples.

Results

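The genes described are 10 antioxidant genes tied to the transcription factor NRF2: Nfe2l2, which encodes NRF2 itself, and Hmox1, Gclc, Gclm, Txnrd1, Srxn1, Gsr, Txn1, Prdx1 and Gpx2. They were chosen by gene symbol, and all 10 were measured among the 19505 genes of the series. RNA was taken from organoids of the small intestine of BALB/c mice, grown as epithelial cultures in domes of basement membrane gel. Every culture received recombinant murine TNF at 20 ng/ml for 48 h. In 5 of them TNF was given together with pegtarazimod at 5 mg/ml, a peptide joined to polyethylene glycol (PEG) described as blocking the classical pathway of complement and the enzyme myeloperoxidase. In the other 5 it was given with PEG at 2.625 mM as vehicle. None of the 10 samples lacked TNF, so both groups carry TNF in every comparison. The effect of TNF itself cannot be read from them. The design text calls the 5 samples of a group biological replicates without saying what differed between them, so the p-values measure the spread between these samples.

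NRF2 is held in the cytoplasm by KEAP1, which presents it for degradation. Oxidants and electrophiles modify KEAP1, after which NRF2 accumulates, enters the nucleus, pairs with small MAF proteins and binds antioxidant response elements. Its targets make and recycle glutathione and thioredoxin, the electron carriers that peroxidases use to remove hydrogen peroxide, and break down haem. NRF2 is controlled largely at the protein level, so the amount of its transcript need not follow its activity.

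Upstream sequence in the RefSeq table of GRCm38.p6 was found for 7 of the 10 genes, in 9 windows since Txnrd1 had 3 starts. Hmox1, Gclc and Gsr had no entry. The 250 bases before each start were searched on both strands for TGACNNNGC, the core of the antioxidant response element, and for TGANTCA, an AP-1 site, which can lie inside it. Of all 32851 such windows in the table, 10.2% held the first motif and 6.75% the second. Nfe2l2, Gclm, Prdx1 and 1 window of Txnrd1 held TGACNNNGC, Prdx1 and Srxn1 held 2 AP-1 sites each, and Txn1 and Gpx2 held neither. The 4 windows with TGACNNNGC and that of Txn1, the member that rose, are shown to set the letters beside the values below. Each reads 5′ to 3′ on the strand of its gene and ends at the base before the start, with capitals for the motif matches.
Txn1, chr4:57956412-57956661, minus strand: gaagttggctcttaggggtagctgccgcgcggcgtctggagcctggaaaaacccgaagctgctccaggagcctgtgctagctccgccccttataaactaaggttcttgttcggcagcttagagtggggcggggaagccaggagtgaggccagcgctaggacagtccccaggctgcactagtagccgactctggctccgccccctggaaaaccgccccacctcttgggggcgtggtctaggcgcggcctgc
Nfe2l2, chr2:75704664-75704913, minus strand: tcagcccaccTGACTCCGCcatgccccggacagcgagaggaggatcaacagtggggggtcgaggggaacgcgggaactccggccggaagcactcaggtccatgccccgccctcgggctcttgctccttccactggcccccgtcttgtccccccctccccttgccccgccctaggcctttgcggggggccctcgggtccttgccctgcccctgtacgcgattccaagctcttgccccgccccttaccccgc
Gclm, chr3:122245307-122245556, plus strand: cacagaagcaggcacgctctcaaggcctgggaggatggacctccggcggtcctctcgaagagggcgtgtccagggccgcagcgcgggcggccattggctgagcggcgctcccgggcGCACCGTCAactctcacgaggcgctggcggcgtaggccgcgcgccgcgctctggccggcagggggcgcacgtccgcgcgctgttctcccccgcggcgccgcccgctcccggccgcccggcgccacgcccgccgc
Txnrd1, chr10:82858956-82859205, plus strand: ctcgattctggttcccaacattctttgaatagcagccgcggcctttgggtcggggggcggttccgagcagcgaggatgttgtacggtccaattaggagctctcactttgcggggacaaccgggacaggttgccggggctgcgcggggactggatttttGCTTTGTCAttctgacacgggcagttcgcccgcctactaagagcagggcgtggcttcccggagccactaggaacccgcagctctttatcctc
Prdx1, chr4:116685349-116685598, plus strand: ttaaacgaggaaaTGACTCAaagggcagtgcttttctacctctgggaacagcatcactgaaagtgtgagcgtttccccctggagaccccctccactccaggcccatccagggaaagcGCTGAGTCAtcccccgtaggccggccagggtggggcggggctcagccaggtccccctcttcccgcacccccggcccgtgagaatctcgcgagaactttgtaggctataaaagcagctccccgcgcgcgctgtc
The match in Nfe2l2 began 240 bases before the start, in Gclm 134, in Txnrd1 92 and in Prdx1 133. The Prdx1 match, TGACTCAGC on the opposite strand, contains an AP-1 site, whereas the other AP-1 site of this window began 237 bases before the start and stood alone. In Srxn1 the AP-1 site that began 45 bases before the start was followed by GC, and so missed TGACNNNGC by 1 base. A match describes letters only. The absence of one says nothing about sites outside these windows or about variants of the motifs inside them.

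The values are log2 expression per probe set, so a difference of 1 is a doubling of signal. All 10 genes had 1 probe set each. Array medians lay between 5.48 and 5.53, and the number of arrays limited precision. By their mean over all arrays the 10 genes ranked between the 69.1 and the 98.9 percentile of measured genes, so none was dim. The 10 epithelial markers checked had single values between 7.91 and 12.30, and of 14 fibroblast, leukocyte and endothelial markers 11 had means below 5.5 (the others were Col1a1, Pdgfrb and Lyz2, named after their values were seen, at 6.41, 5.60 and 7.62). In both groups replicates 1 and 2 stood apart from replicates 3 to 5 on the leading component left after the group means were removed, which held 33.4% of that variance. The labels name no batch, so differences within replicates 1 and 2 and within replicates 3 to 5 stand beside the pooled ones, from a fit with 4 groups and a common spread.

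The 10 genes did not move together with pegtarazimod. The thioredoxin gene Txn1 rose 1.36-fold and the haem oxygenase gene Hmox1 fell 1.41-fold, and the other 8 did not pass the test (limma, Benjamini-Hochberg adjusted over 19505 genes, threshold 0.05). The 2 called of 10 members stand against 4.89% of all genes called, 2.50% higher and 2.39% lower. The median difference of the 10 was 0.05, against 0.00 for all genes, and single differences ran between -0.68 for Gpx2 and 0.44 for Txn1. For every member the 5 pegtarazimod and 5 vehicle values overlapped. The groups did not overlap for 6.71% of all genes, a share at which 10 genes can readily show none. The count of called members was 0 without pegtarazimod 1 or without vehicle 2, 3 or 4, and 1 without pegtarazimod 2 or 3 or without vehicle 1. Without pegtarazimod 5 Hmox1 lost its call and Gclm gained one. Without vehicle 5 Txn1 lost its call and Gclm gained one. Txn1 and Hmox1 both stayed called only without pegtarazimod 4. Around these 10 genes, 5 of 19 other glutathione genes and 5 of 31 other NRF2 targets rose, and 1 gene of each list fell.

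**Figure D1:**
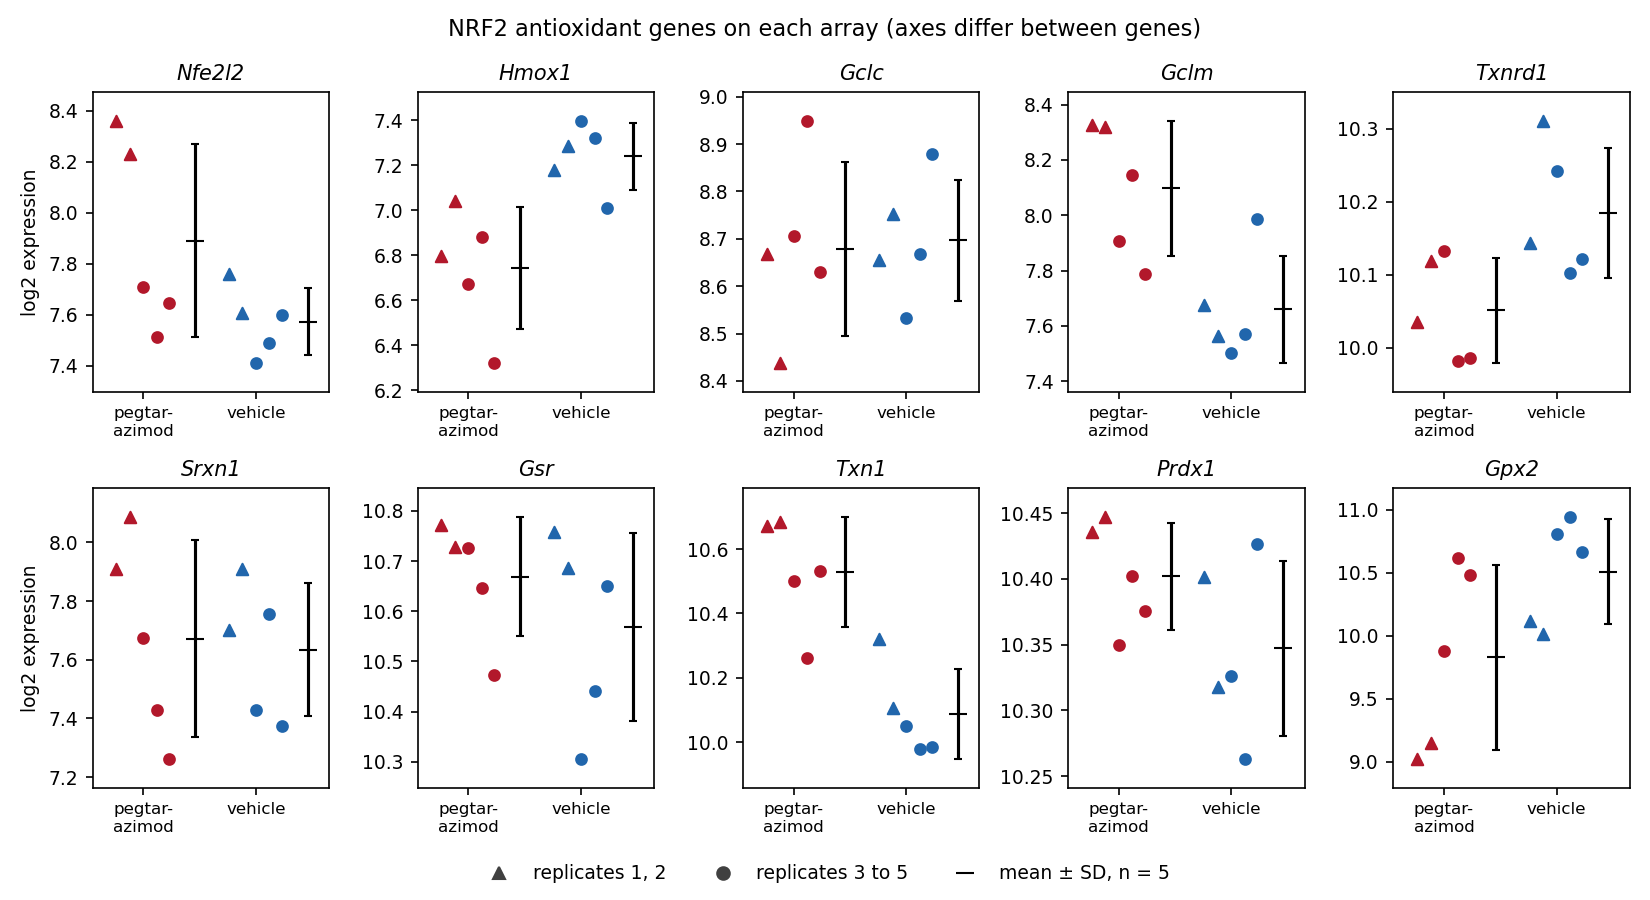
Log2 expression of each of the 10 genes on each array, pegtarazimod left and vehicle right, with the vertical axis set per gene; triangles are replicates 1 and 2, circles replicates 3 to 5, and bars the mean ± SD of 5 arrays. All 5 pegtarazimod values of Txn1 but 1 lie above every vehicle value, all those of Hmox1 but 1 lie below, and the Gpx2 values of replicates 1 and 2 lie below those of replicates 3 to 5 in both groups.

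Nfe2l2 encodes the transcription factor itself. Its log2 values were 8.36, 8.23, 7.71, 7.51 and 7.65 in pegtarazimod replicates 1 to 5, against 7.76, 7.61, 7.41, 7.49 and 7.60 in vehicle replicates 1 to 5. Pegtarazimod replicates 1 and 2 were the highest of the 10 arrays, and the other 3 lay within the vehicle range. The means were 7.89 ± 0.38 with pegtarazimod and 7.57 ± 0.13 with vehicle (SD, n = 5 each), and the difference of 0.32 ± 0.15 (SE) did not pass (limma adjusted p = 0.285; 95% interval -0.01 to 0.65). Within replicates 1 and 2 it was 0.61 (limma adjusted p = 0.0168) and within replicates 3 to 5 it was 0.12 (limma adjusted p = 0.675). The difference between these subsets did not pass either (limma adjusted p = 0.503).

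None of 15 regulators and partners of NRF2 was called by limma, and 4 (Rbx1, Maff, Sqstm1 and Gsk3b, named after their values were seen) had an unadjusted p below 0.05, all at lower values. Over all 19505 genes 3698 had an unadjusted p below 0.05, 1882 of them at lower values. Keap1, the gene of the NRF2 inhibitor, averaged 7.29 ± 0.21 with pegtarazimod and 7.22 ± 0.08 with vehicle (SD, n = 5 each; limma adjusted p = 0.796). Bach1, which encodes a repressor that competes for the same elements, averaged 9.19 ± 0.28 with pegtarazimod and 9.29 ± 0.15 with vehicle (limma adjusted p = 0.759). The list median was -0.05.

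**Figure D2:**
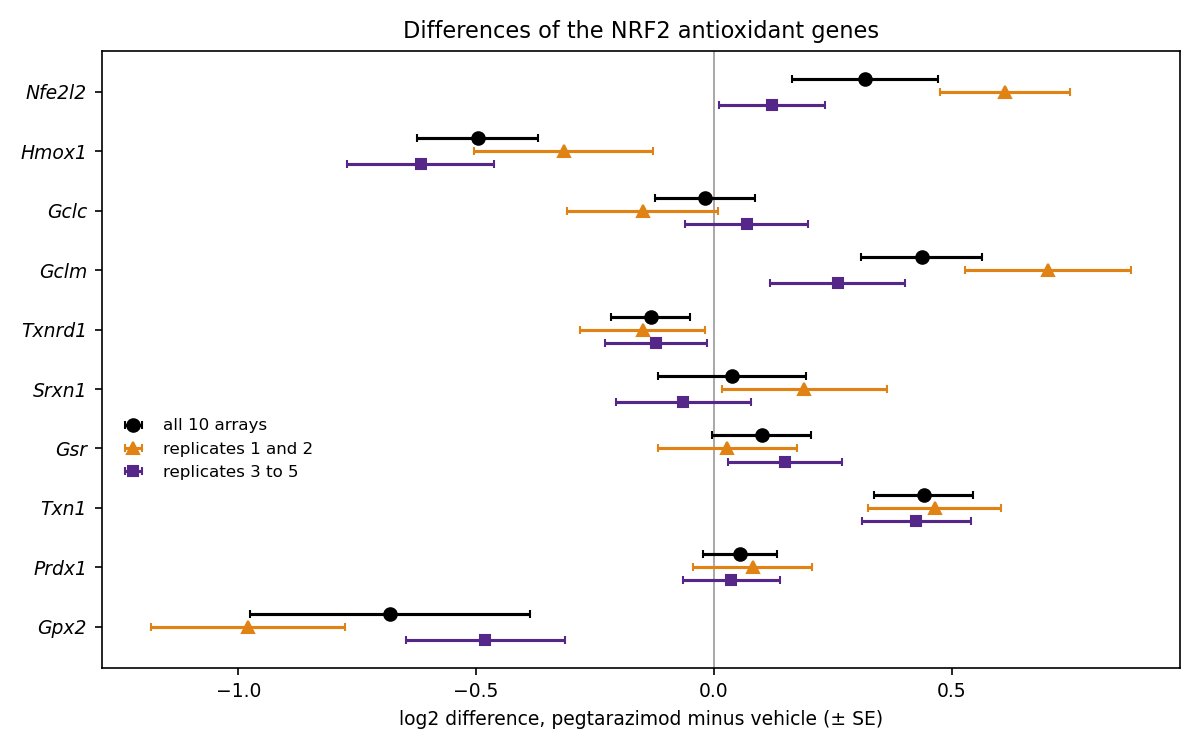
Log2 difference, pegtarazimod minus vehicle, of each of the 10 genes (horizontal axis; points with SE bars), over all 10 arrays, within replicates 1 and 2 and within replicates 3 to 5. Txn1 lies near 0.44 and the Hmox1 and Gpx2 differences lie below 0 in all 3 fits, while Nfe2l2 and Gclm have their larger differences in replicates 1 and 2.

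Gclc and Gclm encode the catalytic and modifier subunits of glutamate-cysteine ligase, the rate-limiting enzyme of glutathione synthesis. Gclm values were 8.33, 8.32, 7.91, 8.15 and 7.79 in pegtarazimod replicates 1 to 5, against 7.68, 7.56, 7.50, 7.57 and 7.99 in vehicle replicates 1 to 5. Vehicle 5 alone reached into the pegtarazimod range. The difference of 0.44 ± 0.13 (SE), 1.35-fold, did not pass over the 10 arrays (limma adjusted p = 0.0676), passed within replicates 1 and 2 (0.70, limma adjusted p = 0.0293) and did not within replicates 3 to 5 (0.26, limma adjusted p = 0.423).

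Gclc values were 8.67, 8.44, 8.71, 8.95 and 8.63 in pegtarazimod replicates 1 to 5, against 8.65, 8.75, 8.53, 8.67 and 8.88 in vehicle replicates 1 to 5. The vehicle range lay inside the pegtarazimod range, and the difference was -0.02 ± 0.10 (SE; limma adjusted p = 0.951), with a 95% interval of 0.845 to 1.15 for the pegtarazimod over vehicle ratio. Gsr, which encodes the reductase that regenerates glutathione with NADPH, lay between 10.47 and 10.77 in the pegtarazimod arrays and between 10.31 and 10.76 in the vehicle arrays. Its difference was 0.10 ± 0.10 (SE; limma adjusted p = 0.686; 95% interval of the ratio 0.918 to 1.25).

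Of 19 other measured glutathione genes 5 rose and 1 fell, 31.6% called against 4.89% of all genes. The list median was 0.18, against 0.00 for all genes. Those that rose were the 3 genes of microsomal glutathione transferases, Mgst2 (1.74-fold, limma adjusted p = 0.00740), Mgst3 (1.68-fold, 0.0104) and Mgst1 (1.5-fold, 0.0437), the peroxidase gene Gpx1 and Cth. Cth and Cbs encode the enzymes of the route that makes cysteine out of homocysteine. They moved in opposite directions. Cth averaged 7.94 ± 0.21 with pegtarazimod and 7.30 ± 0.37 with vehicle (SD, n = 5 each; 1.56-fold higher, limma adjusted p = 0.0366). Cbs, which acts first, averaged 5.44 ± 0.45 with pegtarazimod and 6.26 ± 0.40 with vehicle (1.77-fold lower, limma adjusted p = 0.0432). The calls of Cth, Cbs and Mgst1 ended without vehicle 3, with limma adjusted p-values of 0.104, 0.103 and 0.103, and on leaving out any of 5, 6 and 6 other arrays. For Mgst1 the highest limma adjusted p was 0.114, without pegtarazimod 2.

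Txn1 encodes cytosolic thioredoxin, Txnrd1 the selenium-containing reductase that recharges it, Prdx1 a peroxiredoxin that uses it to reduce hydrogen peroxide, and Srxn1 the sulfiredoxin that repairs overoxidised peroxiredoxins. Txn1 values were 10.67, 10.68, 10.50, 10.26 and 10.53 in pegtarazimod replicates 1 to 5, against 10.32, 10.11, 10.05, 9.98 and 9.99 in vehicle replicates 1 to 5. Pegtarazimod 4 fell below vehicle 1 and caused the overlap, and within replicates 1 and 2 and within replicates 3 to 5 every pegtarazimod value exceeded every vehicle value. The means were 10.53 ± 0.17 with pegtarazimod and 10.09 ± 0.14 with vehicle (SD, n = 5 each), a difference of 0.44 ± 0.10 (SE; limma adjusted p = 0.0275). In replicates 1 and 2 alone it was 0.46 (limma adjusted p = 0.0706) and in replicates 3 to 5 alone 0.43 (limma adjusted p = 0.0615). The call ended without pegtarazimod 1 or 2 or without vehicle 2, 3, 4 or 5, at a limma adjusted p of up to 0.0768 without vehicle 4.

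The other 3 genes of this cycle differed by less. Txnrd1 values were 10.04, 10.12, 10.13, 9.98 and 9.99 in pegtarazimod replicates 1 to 5, against 10.14, 10.31, 10.24, 10.10 and 10.12 in vehicle replicates 1 to 5, a difference of -0.13 ± 0.08 (SE; limma adjusted p = 0.432). Prdx1 had the narrowest spread of the 10 genes in the pegtarazimod arrays. It averaged 10.40 ± 0.04 with pegtarazimod and 10.35 ± 0.07 with vehicle (SD, n = 5 each; difference 0.05, limma adjusted p = 0.777, 95% interval of the ratio 0.926 to 1.17). Srxn1 lay between 7.26 and 8.09 in the pegtarazimod arrays and between 7.37 and 7.91 in the vehicle arrays. Its difference was 0.04 ± 0.16 (SE; limma adjusted p = 0.933), and its highest value in each group was that of replicate 2.

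Among 16 other measured thioredoxin, peroxiredoxin, glutaredoxin and methionine sulfoxide reductase genes, 3 rose and none fell, at a list median of 0.02. These were 18.8% called, against 4.89% of all genes. Txnrd2, the mitochondrial thioredoxin reductase gene, averaged 8.11 ± 0.14 with pegtarazimod and 7.67 ± 0.12 with vehicle (SD, n = 5 each; 1.36-fold, limma adjusted p = 0.0179), and its groups did not overlap. Glrx, which encodes cytosolic glutaredoxin, rose 1.59-fold (limma adjusted p = 0.0404), with 10.06 and 10.17 in pegtarazimod replicates 1 and 2 and 9.47, 9.26 and 9.38 in pegtarazimod replicates 3 to 5, against 8.73 to 9.25 over the vehicle arrays. The methionine sulfoxide reductase gene Msra rose 1.48-fold (limma adjusted p = 0.0287). The call of Txnrd2 ended without vehicle 3 or vehicle 4 (limma adjusted p of up to 0.0595), and those of Glrx and Msra on leaving out any of 6 arrays (the highest being 0.115 for Glrx and 0.0842 for Msra, when vehicle 3 was absent).

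Gpx2 encodes the gastrointestinal glutathione peroxidase, a selenoprotein of the epithelium that is most abundant in the crypt. Its values were 9.02, 9.15, 9.88, 10.62 and 10.48 in pegtarazimod replicates 1 to 5, against 10.11, 10.02, 10.81, 10.94 and 10.67 in vehicle replicates 1 to 5. Replicates 1 and 2 were lower than replicates 3 to 5 in both groups, and within each of these subsets every pegtarazimod value lay below every vehicle value. Over the 10 arrays the difference of -0.68 ± 0.29 (SE) did not pass (limma adjusted p = 0.227). The difference did pass within replicates 1 and 2 (-0.98, limma adjusted p = 0.0120) and with the subset as a term in the fit (-0.68, limma adjusted p = 0.00647), but not within replicates 3 to 5 (-0.48, limma adjusted p = 0.163). The subset term raised the calls over all genes to 9.33%. Gpx1, the ubiquitous cytosolic and mitochondrial peroxidase gene, went the other way. Its values were 10.01, 10.20, 9.98, 10.04 and 10.34 in pegtarazimod replicates 1 to 5, against 9.54, 9.60, 9.58, 9.57 and 9.72 in vehicle replicates 1 to 5. Its groups did not overlap, and it rose 1.43-fold (limma adjusted p = 0.00646).

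Of the superoxide dismutase, copper chaperone and catalase genes none of 5 was called by limma over the 10 arrays, and 2 had an unadjusted p below 0.05, both at higher values. Among all 19505 genes 3698 had such a p, 1816 of them at higher values. With the subset as a term 1 of the 5 rose, the copper chaperone gene Ccs, named after its value was seen (0.33, limma adjusted p = 0.0496). In that fit 9.33% of all genes were called. Catalase (Cat), which removes hydrogen peroxide without a cofactor thiol, averaged 11.56 ± 0.10 with pegtarazimod and 11.27 ± 0.11 with vehicle (SD, n = 5 each). Its groups did not overlap, but it did not pass (difference 0.29, limma adjusted p = 0.0793). Catalase did pass when the dimmest 50% of genes were left out (limma adjusted p = 0.0349) and with an intensity trend and robust priors (limma adjusted p = 0.0262). The cytosolic dismutase gene Sod1 differed by 0.05 (limma adjusted p = 0.833) and the mitochondrial Sod2, also a known NF-kB target, by 0.20 (limma adjusted p = 0.298).

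Hmox1 encodes haem oxygenase-1, which breaks haem into biliverdin, carbon monoxide and iron, and is known to be repressed by BACH1 and induced by NRF2. Its values were 6.79, 7.04, 6.67, 6.88 and 6.32 in pegtarazimod replicates 1 to 5, against 7.18, 7.29, 7.40, 7.32 and 7.01 in vehicle replicates 1 to 5. Pegtarazimod 2 alone lay above the lowest vehicle array, which was vehicle 5. The means were 6.74 ± 0.27 with pegtarazimod and 7.24 ± 0.15 with vehicle (SD, n = 5 each), a difference of -0.50 ± 0.13 (SE; limma adjusted p = 0.0391). The difference was -0.32 within replicates 1 and 2 (limma adjusted p = 0.442) and -0.62 within replicates 3 to 5 (limma adjusted p = 0.0464). The call ended without pegtarazimod 1, 3 or 5 or without vehicle 1, 2, 3 or 4, at a limma adjusted p of up to 0.111 without vehicle 3.

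In the list of 12 haem genes 1 rose and none fell, 8.33% called against 4.89% of all genes, at a median of 0.13. It was Alas1, the first enzyme of haem synthesis, with 8.30, 8.35, 7.96, 8.12 and 8.15 in pegtarazimod replicates 1 to 5, against 7.58, 7.25, 7.72, 7.78 and 7.78 in vehicle replicates 1 to 5. The groups did not overlap and the rise was 1.47-fold (limma adjusted p = 0.0160). The list held 6 genes with an unadjusted p below 0.05, 5 higher and 1 lower, against 3698 of all 19505 genes, 1816 higher and 1882 lower.

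**Figure D3:**
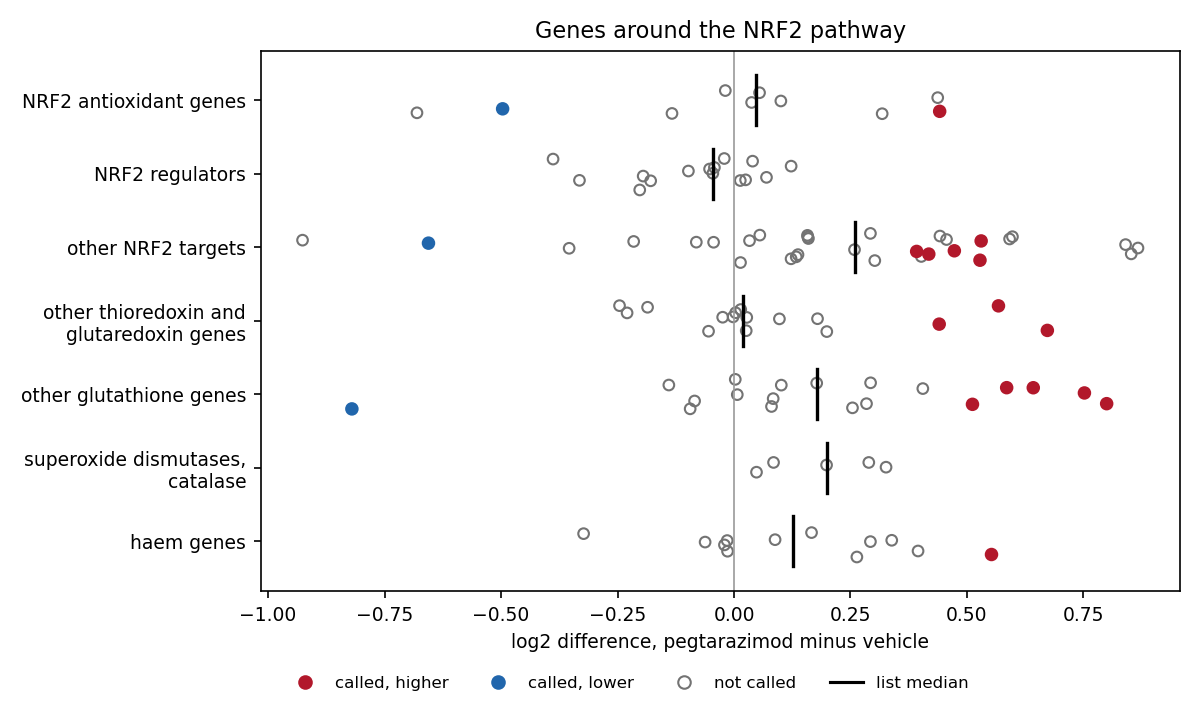
Log2 difference, pegtarazimod minus vehicle (horizontal axis), of every measured gene of the 10 members and of 6 lists around them; filled points passed limma's adjusted threshold, open points did not, and black bars are list medians. The members and the regulators have medians of 0.05 and -0.05, while the other NRF2 targets have a median of 0.26 with 5 called higher and 1 lower.

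Among 31 other known NRF2 targets, 25 had a difference above 0, 5 rose and 1 fell, 19.4% called, and the list median was 0.26. For all 19505 genes, 9886 had a difference above 0, 4.89% were called and the median was 0.00. The count of called targets, with any newly called ones included, was 3 without pegtarazimod 1, 2 or 5 or without vehicle 3 or 5. Gstm2, Entpd5 and Idh1 also lost their calls without vehicle 2 or 4. Of the 31 targets, 7 did not overlap with pegtarazimod higher and 1 did not overlap with pegtarazimod lower, against 6.71% of all genes in either direction. Ptgr1, an NADPH-dependent reductase gene of lipid aldehydes and ketones, averaged 8.69 ± 0.13 with pegtarazimod and 8.16 ± 0.06 with vehicle (SD, n = 5 each; 1.44-fold, limma adjusted p = 0.00383). The glutathione transferase genes Gsta4 and Gstm2 rose 1.44-fold and 1.39-fold (limma adjusted p = 0.00906 and 0.0430), and in these families probes may take up signal of close relatives. Entpd5, a nucleotidase gene of the endoplasmic reticulum, rose 1.34-fold (limma adjusted p = 0.0477), and Idh1, whose enzyme makes NADPH, rose 1.31-fold (limma adjusted p = 0.0493). Abcc1, the gene of an exporter of glutathione conjugates, fell 1.58-fold, with 6.61, 7.18, 7.34, 7.27 and 7.15 in pegtarazimod replicates 1 to 5, against 7.85, 7.83, 7.69, 7.71 and 7.75 in vehicle replicates 1 to 5 (limma adjusted p = 0.00863). The calls of Gstm2, Entpd5 and Idh1 ended on leaving out any of 8, 8 and 9 arrays (at most 0.121, 0.132 and 0.135, each when vehicle 3 was absent), and those of Gstm2 and Idh1 also with quantile normalisation (0.0575 and 0.0634).

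Nqo1 encodes a quinone reductase and is among the most widely used reporters of NRF2 activity. Its values were 8.10, 8.11, 7.37, 6.90 and 6.81 in pegtarazimod replicates 1 to 5, against 7.19, 7.19, 6.16, 6.29 and 6.27 in vehicle replicates 1 to 5. Replicates 1 and 2 were higher than replicates 3 to 5 in both groups, so the groups overlapped, but within each subset they did not. Over the 10 arrays the difference of 0.84 ± 0.29 (SE) did not pass (limma adjusted p = 0.115). The Nqo1 difference did pass within replicates 1 and 2 (0.92, limma adjusted p = 0.00620), within replicates 3 to 5 (0.79, limma adjusted p = 0.00605) and with the subset as a term (limma adjusted p = 1.61e-04). Slc7a11, the cystine importer gene that feeds glutathione synthesis, differed by -0.35 (limma adjusted p = 0.591), by -1.12 within replicates 1 and 2 and by 0.16 within replicates 3 to 5. The Slc7a11 difference between the subsets did not pass (limma adjusted p = 0.430).

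**Figure D4:**
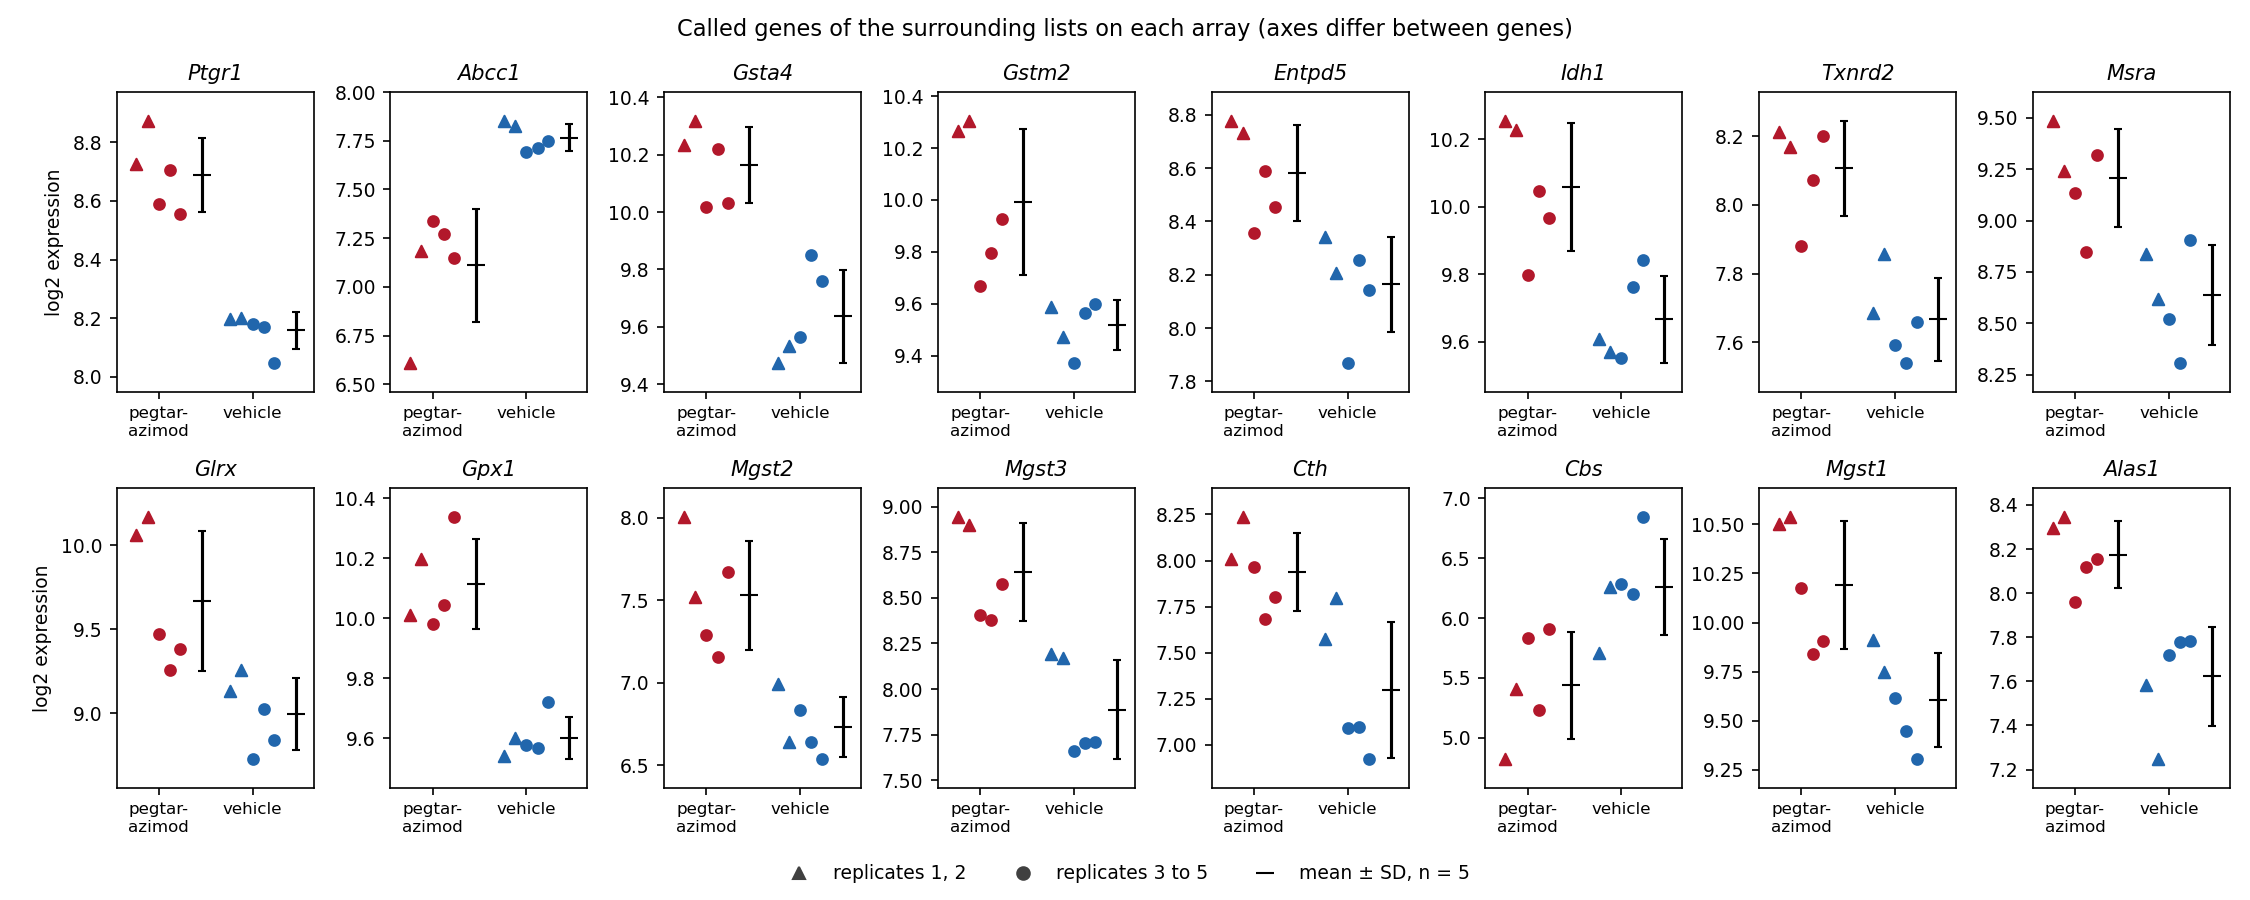
Log2 expression on each array of the 16 genes called in the surrounding lists, pegtarazimod left and vehicle right, with the vertical axis set per gene; triangles are replicates 1 and 2, circles replicates 3 to 5, and bars the mean ± SD of 5 arrays. Abcc1 and Cbs are the 2 that lie lower with pegtarazimod.

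Read by replicate subset, 3 of the 10 members (Txn1, Hmox1 and Gpx2) did not overlap in the same direction in both subsets, against 12.1% of all genes. Within replicates 1 and 2 limma called 3 members (Nfe2l2, Gclm and Gpx2), against 6.30% of all genes, and within replicates 3 to 5 it called 1 (Hmox1), against 3.34%. The difference between the subsets was called for none of the 10, and for 0.0256% of all genes. Its unadjusted p was below 0.05 for 1 of the 10 (Nfe2l2) and for 1493 of all 19505 genes. With the subset as a term 2 members were higher (Txn1 and Gclm) and 2 lower (Hmox1 and Gpx2), against 9.33% of all genes called in that fit, and among the other NRF2 targets 13 were higher and 2 lower.

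Markers of epithelial cell types differed between the groups in the same arrays. Over all genes 2.50% were called higher and 2.39% lower. Of 9 stem cell markers 7 fell and none rose, of 7 Paneth cell markers 4 fell and none rose (2 of the 4, Defa3 and Defa17, had identical values), of 10 enterocyte markers 5 rose and none fell, and of 7 goblet cell markers 6 rose and none fell. The log2 of the summed stem cell markers was 11.57 to 12.50 with pegtarazimod and at most 13.16 with vehicle, and the groups did not overlap. That of the enterocyte markers was 13.33 to 14.30 with pegtarazimod and 12.75 to 13.30 with vehicle. The Paneth cell sum was 10.83 to 11.95 with pegtarazimod and 11.67 to 12.54 with vehicle, and the goblet cell sum 11.71 to 12.05 with pegtarazimod and 10.84 to 11.40 with vehicle. With the subset as a term 8 of 9 stem cell and 7 of 7 Paneth cell markers fell, and 8 of 10 enterocyte and 6 of 7 goblet cell markers rose. In that fit 9.33% of all genes were called. No fibroblast, leukocyte or endothelial marker was called by limma over the 10 arrays. An unadjusted p below 0.05 was found for 3 of these 14, against 3698 of all 19505 genes. Of the 14, Lyz2 alone was called with the subset as a term (-0.47, limma adjusted p = 0.0148) and within replicates 3 to 5 (-0.59, limma adjusted p = 0.0345). Lyz1, a lysozyme gene in the Paneth cell list, also fell in these fits (-0.54, limma adjusted p = 0.0100, and -0.62, limma adjusted p = 0.0473). Whether the Lyz2 probe set takes up Lyz1 signal was not tested. In bulk RNA fewer cells of a type and less RNA per cell cannot be told apart, and the part of cell type shares in the differences above was not tested.

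The genes whose profiles lay nearest to the 2 called members were found by the mean absolute difference between log2 profiles over the 10 arrays, each centred on its own mean. For Txn1 they were Tspan3 (0.051), Cebpa (0.063) and Pla2g12b (0.064), where the median over all genes was 0.267. For Hmox1 they were Zswim4 (0.092), Rnd3 (0.100) and Dbn1 (0.104), where the median was 0.300.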

How the data were processed

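RNA of 10 organoid samples, 5 with TNF and pegtarazimod and 5 with TNF and PEG vehicle, was measured on 10 single-colour arrays. Groups and replicate numbers came from the sample labels. The deposited values are log2 expression, made with oligo and the RMA method (background correction, quantile normalisation and summary per probe set) per the submitters' processing notes. The sources used here do not give versions or annotation, and a shift shared by most genes is removed by quantile normalisation.

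A platform annotation named 19572 of 22203 probe sets with 1 gene, and 2631 unnamed ones were left out. The 19505 genes were each represented by the probe set with the highest mean (55 had several). Differences, pegtarazimod minus vehicle, came from lmFit and eBayes of limma 3.58.1 (R 4.3.3), without covariates, with p-values adjusted over all genes by the Benjamini-Hochberg method and 0.05 as the threshold. A fit with 4 groups gave the differences within replicates 1 and 2 and within replicates 3 to 5. No set tests were run.

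The members, the lists and the named genes were chosen with earlier results of these data known. Named were all members, every called gene of 6 surrounding lists if at most 8 were called, and 7 single genes (Keap1, Bach1, Nqo1, Slc7a11, Sod1, Sod2, Cat). Of the listed genes, 8 around the members and 4 cell type markers had no value under their symbol and were not analysed here. On simulated arrays of 19505 genes, a log2 change of 0.5 was called for 33 of 67 genes, one of 1 for 67 of 67 and one of 2 for 66 of 66, and 14 of 180 calls were false. The simulated noise was drawn independently for each gene, without the split of replicates seen here, so these counts need not hold for the real arrays. Alternatives are given in the closing section. Figures were drawn with matplotlib 3.10.9 in Python 3.11.15.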

Additional observations from a re-analysis of the deposited data

Results flagged for a closer look

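Among the 33 named genes, checked in both groups of 5 arrays, 3 groups held an array whose gap to its nearest neighbour took more of the group's range than Dixon's 95% critical value, and chance alone marks about 1 in 20 groups. Abcc1 was 6.61 in pegtarazimod 1, against 7.15 to 7.34 in the other pegtarazimod arrays, a gap of 0.736 of the range. Its limma adjusted p was 0.00646 to 0.0240 on leaving out each array in turn. Ptgr1 was 8.05 in vehicle 5, against 8.17 to 8.20 in the other vehicle arrays, a gap of 0.796 of the range. Bach1 was 9.54 in vehicle 2, against 9.17 to 9.27 in the other vehicle arrays, a gap of 0.747 of the range. No member of the 10 was marked in this way.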

How the results depend on the processing

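Over all genes 954 were called, 437 to 1245 on leaving out each array in turn, 1606 with a replicate block and 1820 with replicates 1 and 2 against 3 to 5 as a term. Of the 10 members 2 were called, and 0 to 2 on leaving out each array (Gclm, where newly called, included). The count was 4 with the subset term and 1 within replicates 3 to 5 (a fit added after the data were seen). Of the other NRF2 targets 6 were called, 3 to 8 on leaving out each array, 10 without the dimmest 50% of genes, 14 with a replicate block, 15 with the subset term and 12 within replicates 1 and 2. With a replicate block 3 members were called, Gpx2 among them (limma adjusted p = 0.00893), and Nqo1 also passed (7.55e-04). Deviations of arrays with the same number correlated at 0.0993 to 0.310. The labels do not say that a number marks a shared culture, and since 1 pair fell just short of the limit of 0.1 required of every pair, the block was kept as an alternative. Across the groups 8 of 10 arrays correlated best with their own number. Only the group means were removed first, so the split of replicates 1 and 2 from replicates 3 to 5 also favours such matches. Whether the numbers pair the samples was not tested. Gclm passed without the dimmest 50% of genes, with an intensity trend and robust priors, with array weights, with the subset term and without pegtarazimod 5 or vehicle 5 (limma adjusted p = 0.0353 to 0.0444). Cat passed under the first 2 of these (0.0349 and 0.0262). Txn1 and Hmox1 passed under all 9 alternatives that kept every array (limma adjusted p = 0.00476 to 0.0307 and 0.0101 to 0.0491). Of the 18 called genes named, 7 (Ptgr1, Abcc1, Gsta4, Gpx1, Mgst2, Mgst3 and Alas1) stayed called without each array in turn, and no called value changed sign. The call of Cbs ended with an intensity trend and robust priors (0.0514). Why these calls moved was not tested. Centring the arrays on their medians moved the median difference of all genes to 0.03, against 0.00 as deposited.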
